A study of Mus musculus with 36 samples.

Results

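MicroRNA sequencing of Pkd2 knockout kidneys at postnatal day 7 (P7) was compared with that of floxed littermates of the same age. The knockout mice (KO) were Pkd2f/f:HoxB7-Cre and the controls (WT) were Pkd2f/f without Cre, so both groups carried the floxed allele, and the strain background was C57BL/6. The comparison takes 3 KO and 3 WT libraries of 36 in the series. The rest of the series holds Pkd2 kidneys at P1 and P3 and a second model, Pkd1f/f and Pkd1f/f:HoxB7-Cre, at the same ages. HoxB7-Cre acts in the ureteric bud lineage that forms the collecting duct, and each library came from whole-kidney RNA in which all other segments, stroma, vessels and blood carried an intact Pkd2 gene. Of 1915 mature miRNAs listed, the 746 with at least 10 counts in at least 3 of the 18 Pkd2 libraries were tested. The level of Pkd2 messenger RNA was not analysed here, and no miRNA stands in for it, so loss of the gene was not checked in these libraries.

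miRNAs are short RNAs cut from the 5p or 3p arm of a hairpin, and they repress messenger RNAs mainly through pairing of the seed, bases 2 to 8 of the mature strand. Members of a family that share a seed can be transcribed from different chromosomes, so their levels may part while their target sites do not. In the kidney, miR-192 and miR-194 are known as miRNAs of nephron epithelium and the miR-200 family as one of epithelia in general. The miR-17/92 cluster and miR-21 are known from earlier work as promoters of cyst growth. A large group of miRNAs from the imprinted Dlk1-Dio3 region is transcribed from the maternal chromosome and is prominent in fetal tissue.

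The mature sequences behind the main results are printed 5′ to 3′ with the seed in capitals, as given by RefSeq for build GRCm38.p6. The first set shows families in which 1 seed was carried by a miRNA that changed and by another that did not pass the test. In the miR-200 family, the miR-141/miR-200a and miR-200c/miR-200b/miR-429 strands differ outside the seed by a few bases, and in the miR-29 and miR-17 families by as little as 1.
miR-141-3p: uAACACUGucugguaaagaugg
miR-200a-3p: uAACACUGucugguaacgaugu
miR-200c-3p: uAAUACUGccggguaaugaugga
miR-200b-3p: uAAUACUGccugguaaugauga
miR-429-3p: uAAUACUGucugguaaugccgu
miR-29a-3p: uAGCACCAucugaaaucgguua
miR-29b-3p: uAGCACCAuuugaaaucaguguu
miR-29c-3p: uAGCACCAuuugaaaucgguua
miR-192-5p: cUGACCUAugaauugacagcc
miR-215-5p: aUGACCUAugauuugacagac
miR-106a-5p: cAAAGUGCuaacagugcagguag
miR-20b-5p: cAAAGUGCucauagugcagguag
miR-17-5p: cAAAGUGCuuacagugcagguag

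The second set holds miRNAs with large or abundant changes outside those families, miR-3059-5p with the largest among the calls, and 4 strands from the Dlk1-Dio3 region, of which miR-379-3p and miR-411-3p share a seed.
miR-205-5p: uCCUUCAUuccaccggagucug
miR-3059-5p: uUUCCUCUcugccccauagggu
miR-31-5p: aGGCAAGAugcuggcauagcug
miR-21a-5p: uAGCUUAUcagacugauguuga
miR-182-5p: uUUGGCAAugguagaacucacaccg
miR-183-5p: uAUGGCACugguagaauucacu
miR-204-5p: uUCCCUUUgucauccuaugccu
miR-194-5p: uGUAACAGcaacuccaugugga
miR-379-3p: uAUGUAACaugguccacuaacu
miR-411-3p: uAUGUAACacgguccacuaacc
miR-409-3p: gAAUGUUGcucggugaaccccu
miR-540-3p: aGGUCAGAggucgauccugg

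The 6 libraries held between 22895512 and 27197967 miRNA reads, and 963 to 1132 miRNAs had at least 1 read. Values are given as normalised CPM, a miRNA's share of the library's reads after scaling by the trimmed mean of M values (TMM), with replicates 1, 2 and 3 always in that order. In these libraries 3 reads, the limit that a count of 0 allows, stood for 0.107 to 0.281 CPM, which covers counting error only. The pair miR-10a-5p and miR-10b-5p, which made up much of every library, took 66.4%, 47.9% and 42.8% of the reads in WT and 41.1%, 74.1% and 57.4% in KO. The means were 52.4% ± 12.4 (SD, n = 3) and 57.5% ± 16.5, and the groups overlapped (exact two-sided permutation p = 0.7, where 3 against 3 libraries cannot go below 0.1). KO replicate 2 and WT replicate 1, the libraries with the highest miR-10 share, also had the lowest TMM factors of the 6, 0.393 and 0.565. Both were likewise the highest of their own group for miR-96-5p, miR-145a-5p, miR-221-5p and miR-351-5p. The part of this share in the differences between KO and WT was not tested.

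At P7 the kidneys of Pkd2 KO mice held more of the Dlk1-Dio3 miRNAs, of miR-205, miR-31, miR-21a, the miR-183 cluster and the miR-200c/miR-141 pair, and less of the nephron miRNAs miR-192, miR-194 and miR-802, of miR-204 and of the X-linked miR-106a/miR-363 cluster. A miRNA was called when its adjusted p was under 0.05 (edgeR quasi-likelihood test, Benjamini-Hochberg over all 746), which held for 94 or 12.6%. Of these, 67 were higher in KO (8.98% of those tested) and 27 were lower (3.62%). Without adjustment 216 miRNAs, 29.0%, had a p under 0.05, and the 3 KO libraries lay wholly above or below the 3 WT libraries for 188, 25.2%. The study combined lists from edgeR and DESeq2 at a 2-fold and unadjusted p threshold. The same threshold of at least 2-fold and p under 0.05, applied here to the edgeR test alone, took in 133 miRNAs (17.8%), 117 up (15.7%) and 16 down (2.14%), and applied to DESeq2 alone 131. The median of all log2 fold changes was 0.02. Scaled to library totals without miR-10a-5p and miR-10b-5p, which moved that median to 0.15, 89 were called higher and 18 lower.

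Calls came from the whole range of levels. Among 68 miRNAs at 1000 CPM or more, 3 were higher and 2 were lower, and below 1 CPM 10 of 205 were higher and 2 lower. From 1 to 1000 CPM, in classes divided at 10 and 100 CPM, between 15.5% and 17% were called. Among the 94 calls the libraries of the groups did not overlap for 88, all 27 falls included, where 25.2% of all miRNAs did not. The calls were chosen by a test on these same libraries, so this count gives them no further support. The median standard error of a log2 fold change fell from 0.54 below 1 CPM to 0.23 at 1000 CPM or more, so smaller changes could be called in abundant miRNAs. The 27 falls spanned log2 fold changes of -1.74 to -0.50, and the 67 rises spanned 0.73 to 3.75.

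How many miRNAs were called rested on single libraries. Leaving out KO replicate 3 left 4 calls, all of them higher in KO, leaving out WT replicate 2 left 10, and leaving out WT replicate 3 left 11. The number was 52 when WT replicate 1 was dropped and rose to 115 and 142 when KO replicate 1 or KO replicate 2 was. With reads scaled to the library total in place of TMM, 7 were called, again all higher in KO, so that all 27 falls were lost in both settings. The KO libraries were uneven. Replicate 3 was the highest of the 3 for 48 of the 67 rises and the lowest for 19 of the 27 falls, and replicate 2 was the lowest for 47 of the rises.

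**Figure D1:**
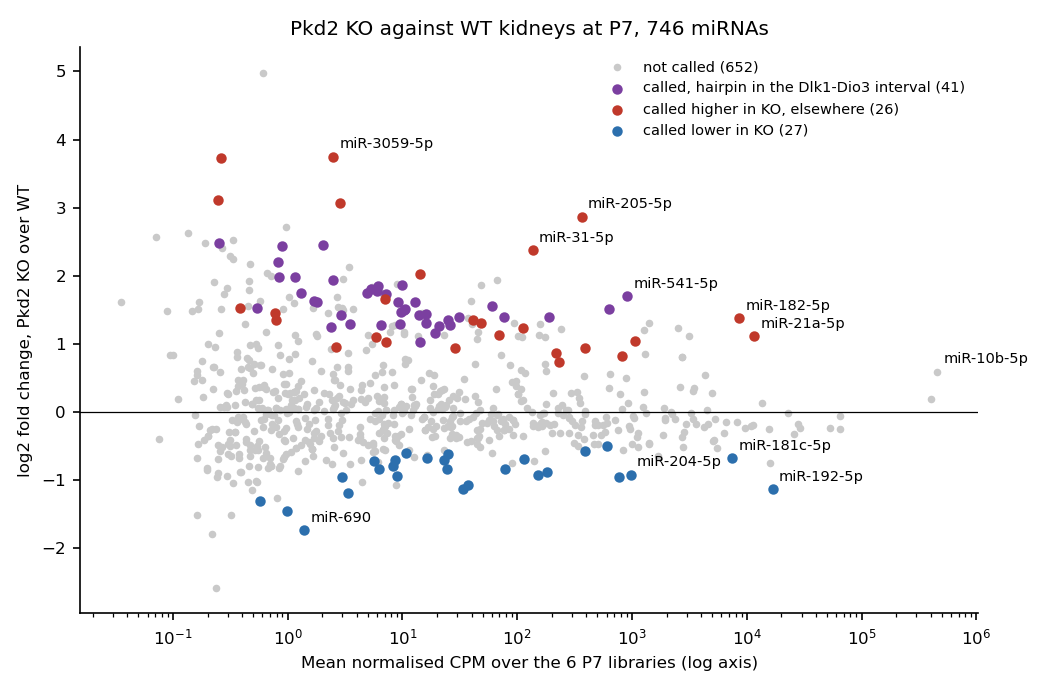
Log2 fold change of KO over WT at P7 (vertical axis) against mean normalised CPM over the 6 libraries (log axis) for 746 miRNAs. Grey points were not called, purple points are the 41 called miRNAs of the Dlk1-Dio3 interval, red points the other 26 rises and blue points the 27 falls. The called rises reach 3.75, the called falls reach -1.74, some scarce uncalled miRNAs lie beyond both, and miR-21a-5p, miR-182-5p and miR-192-5p are called among the most abundant.

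miR-31 and miR-205 gave the largest rises among well-expressed miRNAs. miR-31, known from skin and other epithelia, lies on chromosome 4 (chr4:88910557-88910662, minus strand, in an exon of a long noncoding RNA). miR-31-5p stood at 53.1, 36.5 and 42.8 CPM in WT and at 220.0, 130.2 and 334 CPM in KO, which is 5.17-fold higher (log2 fold change 2.37, SE 0.32, adjusted p = 0.00112). All KO libraries were above all WT libraries, and of the 46 calls picked by the naming rule it alone stayed called in all 13 other settings, at adjusted p between 3.75e-10 and 0.0338. The other arm, miR-31-3p, stood at 8.20, 4.04 and 4.69 CPM in WT and 24.9, 15.8 and 27.6 CPM in KO (2.03, SE 0.42, adjusted p = 0.0136), and was not called without KO replicate 3, WT replicate 2 or WT replicate 3.

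miR-205, which with the miR-200 family restrains the repressors Zeb1 and Zeb2 in epithelial cells, comes from chromosome 1 (chr1:193507463-193507530, minus strand, in an exon of the long noncoding RNA 4631405K08Rik). Levels of miR-205-5p were 136, 57.2 and 69.9 CPM in WT and 657, 131 and 1126 CPM in KO (log2 fold change 2.87, SE 0.72, adjusted p = 0.0175). KO replicates 1 and 3 were far above the WT libraries, but KO replicate 2 lay just under WT replicate 1, so the groups overlapped. Its rarer arm, miR-205-3p, was at 0.928, 0.428 and 0.541 CPM against 5.65, 1.78 and 7.78 CPM, without overlap (3.07, SE 0.66, adjusted p = 0.0147). Leaving out KO replicate 3, WT replicate 2 or WT replicate 3 ended the call of both arms, and miR-205-5p was also not called with the 6 libraries fitted alone.

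The miR-200 family split by locus. Its 5 hairpins form 2 clusters, miR-200c/miR-141 on chromosome 6, where both hairpins lie within 477 bases (chr6:124717914-124718390), and miR-200a/miR-200b/miR-429 on chromosome 4, within 1846 bases (chr4:156053905-156055750). All 4 strands of miR-200c/miR-141, the arms of 2 hairpins, were called higher, where 8.98% of all miRNAs were. Their log2 fold changes were 0.82 to 0.95. None of the 6 strands of miR-200a/miR-200b/miR-429 was called (edgeR), none had an unadjusted p under 0.05 and DESeq2 called none, with a median of -0.20. miR-141-3p was at 523, 585 and 649 CPM in WT and 1317, 795 and 989.6 CPM in KO (log2 fold change 0.82, SE 0.20, adjusted p = 0.0163). Its seed partner miR-200a-3p was at 1882, 2085 and 2083 CPM and 1891, 1617 and 2067 CPM (-0.12, SE 0.14, adjusted p = 0.637). For miR-200c-3p the values were 156, 156 and 153 CPM and 245, 283 and 323 CPM (0.87, SE 0.22, adjusted p = 0.0175), whereas miR-200b-3p had 3864, 4035 and 3584 CPM and 2765, 4102 and 3328 CPM (-0.17, SE 0.16, adjusted p = 0.523).

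The ratio of such a pair within a library does not depend on library scaling. On the log2 scale, miR-141-3p over miR-200a-3p was -1.85, -1.83 and -1.68 in the WT libraries and -0.52, -1.02 and -1.06 in the KO libraries, a shift of 0.92 without overlap. miR-200c-3p over miR-200b-3p moved from -4.63, -4.69 and -4.55 to -3.50, -3.86 and -3.37, a shift of 1.05, again without overlap. These pairs were chosen after their values were seen, so the ratios are a description and were given no test. The members of each pair differ at 2 of 22 compared bases, so reads with errors could be counted for the wrong one. The chromosome 4 strands took most of the family's reads, and the family summed to 7528, 8344 and 8037 CPM in WT and 7495, 7788 and 7871 CPM in KO, with overlap. The number of calls in miR-200c/miR-141 was 0 without KO replicate 3, WT replicate 2 or WT replicate 3, 1 without WT replicate 1, and 0 with library totals.

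The miR-183 cluster, known from sensory organs, holds miR-183, miR-96 and miR-182 within 3820 bases of chromosome 6 (chr6:30165918-30169737, minus strand, between genes). Of its 5 tested strands 4 rose, where 8.98% of all miRNAs did. miR-182-5p, the most abundant, was at 5636, 4125 and 4476 CPM in WT and 8397, 17286 and 11290.3 CPM in KO (log2 fold change 1.38, SE 0.32, adjusted p = 0.0159), with every KO library above every WT library. miR-183-5p was at 808, 637 and 624 CPM and 1344, 1813 and 1091 CPM (1.04, SE 0.31, adjusted p = 0.0371), and miR-183-3p at 17.2, 24.5 and 28.2 CPM and 47.7, 75.7 and 54.9 CPM (1.35, SE 0.24, adjusted p = 0.00647). In these TMM-scaled values KO replicate 2, not replicate 3, was the highest. That library had the lowest TMM factor of the 6, 0.393, which raises its scaled values the most, so its place as the highest depends on the scaling. miR-96-5p was not called, at 48.96, 17.1 and 17.8 CPM in WT and 32.8, 179.9 and 106 CPM in KO (1.93, SE 0.75, adjusted p = 0.0965), and KO replicate 1 lay inside the WT range. With KO replicate 3 left out, only miR-183-3p of the cluster was called, and with WT replicate 2 left out 1 strand was. Of the 13 other settings miR-183-5p was not called in 7, miR-182-5p in 3 and miR-183-3p in 1.

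miR-21a, induced in injured and fibrotic kidney, is read from within the last part of the Vmp1 gene (chr11:86584067-86584158, minus strand, exonic). miR-21a-5p rose from 7903, 6828 and 7336 CPM in WT to 10702, 23304 and 13782 CPM in KO, a 2.17-fold ratio of the means, without overlap (log2 fold change 1.11, SE 0.25, adjusted p = 0.0147). With the other arm, miR-21a-3p, the levels were 52.7, 68.9 and 89.3 CPM and 227, 104 and 119.6 CPM (1.10, SE 0.36, adjusted p = 0.0576), a change of the same size that missed the threshold, although the libraries did not overlap either. Leaving out any one of KO replicate 3, WT replicate 2 and WT replicate 3 ended the call of miR-21a-5p.

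**Figure D2:**
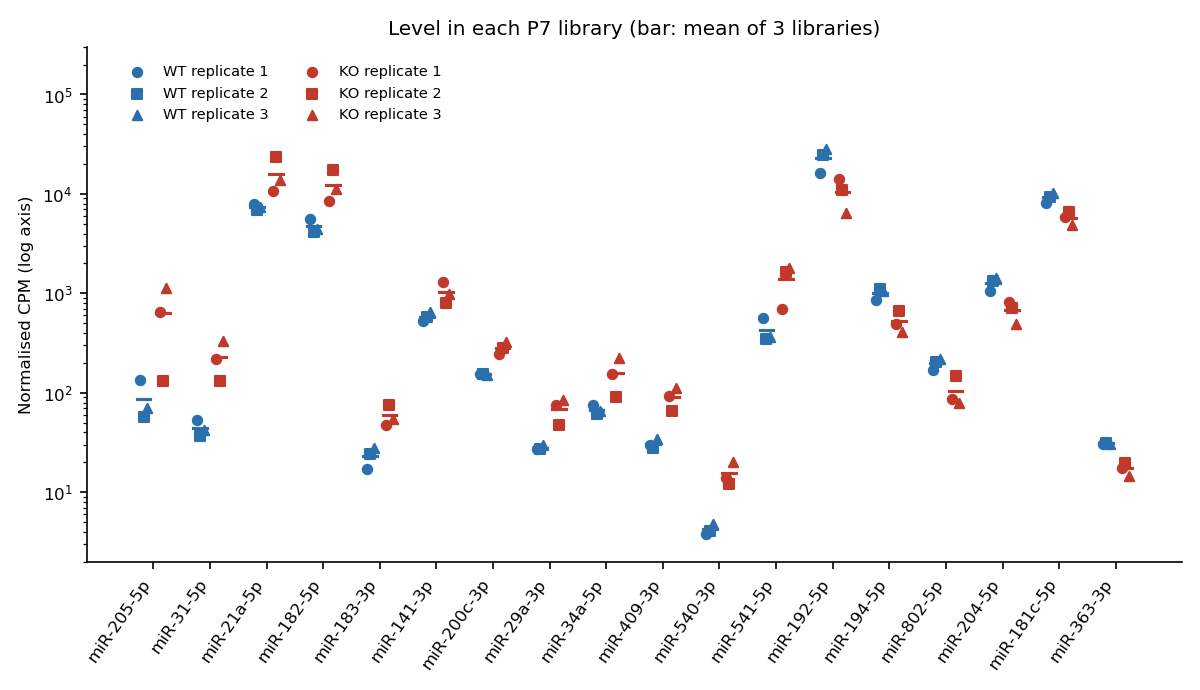
Normalised CPM (log axis) of 18 miRNAs in each of the 3 WT (blue) and 3 KO (red) libraries at P7, with the replicate shown by the marker and the mean by a bar. The KO libraries lie above WT for miR-31-5p through miR-541-5p and below WT from miR-192-5p onwards, while for miR-205-5p KO replicate 2, at 131 CPM, lies within the WT range.

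Further rises fell in small families. miR-29, which represses collagen transcripts, had 2 called strands of 6, against 12.6% of all miRNAs. miR-29a-3p was at 27.2, 27.1 and 29.97 CPM in WT and 75.4, 47.7 and 85.1 CPM in KO (log2 fold change 1.31, SE 0.23, adjusted p = 0.00647), and miR-29b-3p at 5.26, 3.09 and 3.02 CPM and 8.10, 6.26 and 9.77 CPM (1.11, SE 0.31, adjusted p = 0.0263). miR-29c-3p, which differs from miR-29a-3p at 1 of 22 bases, was at 41.5, 43.4 and 44.7 CPM and 44.6, 40.7 and 57.8 CPM (0.14, SE 0.18, adjusted p = 0.653). miR-29a-3p over miR-29c-3p, on the log2 scale, went from -0.61, -0.68 and -0.58 in WT to 0.76, 0.23 and 0.56 in KO. The ratio was thus below 0 in every WT library and above 0 in every KO library, again as a description. miR-29b-3p comes from 2 hairpins, beside miR-29a on chromosome 6 and beside miR-29c on chromosome 1, and its reads cannot be assigned to either.

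miR-34a-5p, whose gene is a target of p53, had 74.9, 60.7 and 65.7 CPM in WT and 156, 90.3 and 224 CPM in KO (log2 fold change 1.23, SE 0.27, adjusted p = 0.0147), and was the 1 call among 8 tested strands of the miR-34 and miR-449 families, a share near the 12.6% of all miRNAs. miR-222-3p, known to repress the cell-cycle inhibitor Cdkn1b, had 192, 169 and 164 CPM and 209, 391 and 274 CPM (0.73, SE 0.23, adjusted p = 0.0425), and miR-221-3p, with the same seed, 356, 288 and 283 CPM and 362, 547 and 431 CPM (0.53, SE 0.22, adjusted p = 0.12). Of the hypoxia-induced miR-210, the 5p arm was called, at 4.41, 4.09 and 5.68 CPM and 8.49, 4.30 and 15.8 CPM (1.02, SE 0.31, adjusted p = 0.0422). The more abundant miR-210-3p was not, at 121, 128 and 145 CPM and 284, 114 and 245 CPM (0.70, SE 0.30, adjusted p = 0.121). In both arms of miR-210 KO replicate 2 stayed within or under the WT range. None of miR-29, miR-34a, miR-222 and miR-210 was called without KO replicate 3. Of the 13 other settings miR-222-3p was not called in 8, miR-210-5p in 7, miR-29b-3p in 6, miR-34a-5p in 5 and miR-29a-3p in 2.

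miR-3059-5p, from an intron of Mgat4c (chr10:101772692-101772772), gave the largest log2 fold change among the calls, at a low level, with 0.851, 0.143 and 0.180 CPM in WT and 4.51, 1.31 and 7.95 CPM in KO (log2 fold change 3.75, SE 0.90, adjusted p = 0.0163). The pattern over the 6 libraries followed that of miR-205, with KO replicate 2 the lowest KO library and WT replicate 1 the highest WT library, and its call too was lost without KO replicate 3, WT replicate 2 or WT replicate 3.

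The largest block of calls lay in 1 place. The Dlk1-Dio3 interval of chromosome 12, taken here between these genes (chr12:109463337-110279067), encodes 87 of the tested miRNAs on 49 hairpins. Of these 41 were called, 47.1%, against 53 of 659 or 8.04% of the other miRNAs, which include those whose hairpin had no match in the reference, and all 41 were higher in KO. They came from 34 hairpins within 175971 bases and spanned log2 fold changes of 1.03 to 2.47. Of the 87 tested, 58 did not overlap between the groups, where 25.2% of all miRNAs did not. Of the 87, 84 had a positive log2 fold change, with a median of 1.43, where the median over all other miRNAs was -0.07. The 3 with a negative value were miR-3544-5p at -0.52 and the arms of miR-1247, at -0.49 and -0.32, none of them called. miR-1247 is the last tested hairpin of the interval, beyond the miR-379/miR-410 cluster.

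Along the interval, the hairpins around Rtl1, an imprinted gene repressed by those that lie opposite its exon, gave 11 calls of 25 tested strands (median 1.40). The miR-379/miR-410 cluster further on gave 29 of 59 (median 1.46), and miR-3072-3p from an exon of Mirg was the remaining call. miR-540-3p had the smallest adjusted p of the block, at 3.79, 4.13 and 4.82 CPM in WT and 13.9, 12.2 and 20.3 CPM in KO (log2 fold change 1.86, SE 0.27, adjusted p = 0.0015). miR-665-3p was at 0.464, 0.808 and 0.586 CPM and 3.84, 1.96 and 4.45 CPM (2.45, SE 0.50, adjusted p = 0.0135), and miR-337-3p at 1.39, 1.57 and 1.76 CPM and 4.76, 3.18 and 4.67 CPM (1.42, SE 0.32, adjusted p = 0.0149). In the miR-379/miR-410 cluster, miR-409-3p was at 30.1, 28.2 and 34.3 CPM and 93.6, 65.8 and 111 CPM (1.55, SE 0.31, adjusted p = 0.0116), and miR-299a-3p at 9.67, 8.60 and 9.38 CPM and 22.2, 21.3 and 24.9 CPM (1.31, SE 0.23, adjusted p = 0.00647). In each of these 5 every KO library exceeded every WT library. miR-434-3p, read opposite the Rtl1 exon, was at 304, 295 and 391.5 CPM and 1329.8, 416 and 1069 CPM (1.51, SE 0.40, adjusted p = 0.022). The abundant miR-541-5p, at 571, 348 and 362.9 CPM and 692, 1645 and 1815 CPM, likewise did not overlap (1.70, SE 0.46, adjusted p = 0.025).

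The KO libraries differed in how far the block rose. The median log2 ratio of a KO library to the WT mean over the 87 miRNAs was 1.29 in replicate 1, 0.74 in replicate 2 and 1.75 in replicate 3. Among the 41 called, replicate 2 was the lowest of the 3 for 33 and replicate 3 the highest for 33. Replicate 2 was also close to WT for abundant members that were not called. miR-127-3p was at 1536, 1928 and 2435 CPM in WT and 6652, 2171 and 3942 CPM in KO (1.11, SE 0.42, adjusted p = 0.0871), and miR-411-5p at 775, 873 and 1131 CPM and 1929.8, 1207 and 1875 CPM (0.85, SE 0.35, adjusted p = 0.111). In both, KO replicates 1 and 3 were above every WT library. The number called in the interval was 2 without KO replicate 3, 3 without WT replicate 2 or WT replicate 3, 19 when WT replicate 1 was dropped, and 56 when KO replicate 2 was. Scaled to library totals it was 1.

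**Figure D3:**
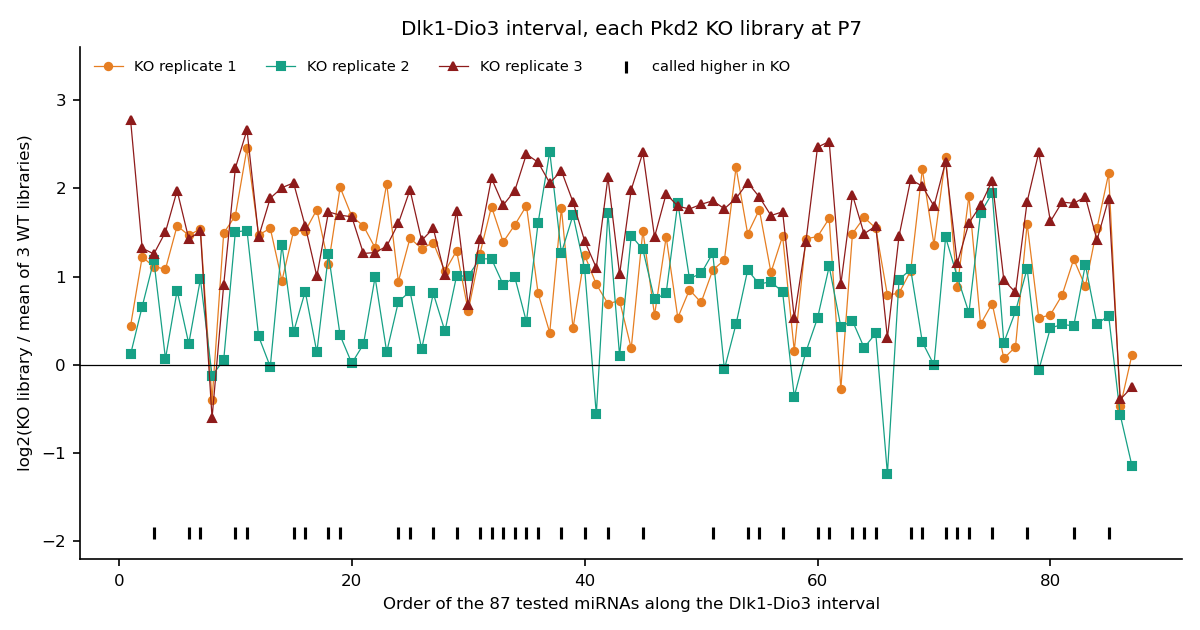
Log2 ratio of each KO library at P7 to the mean of the 3 WT libraries, computed on CPM + 0.1, for the 87 tested miRNAs in their order along the Dlk1-Dio3 interval, with ticks under the 41 that were called. Replicates 1 and 3 lie above 0 almost throughout, with medians of 1.29 and 1.75, and replicate 2 lies lower, with a median of 0.74.

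Among the falls were most miRNAs of the nephron list. Of 7 tested strands of miR-192, miR-194, miR-215 and miR-802, 5 fell, against 3.62% of all miRNAs, and the median was -0.95. miR-192-5p, the most abundant call of all, was at 16205, 24845 and 28242 CPM in WT and 14267, 10969.5 and 6417 CPM in KO (log2 fold change -1.13, SE 0.34, adjusted p = 0.0392). miR-194-5p was at 867, 1112 and 1062 CPM and 492, 668 and 414 CPM (-0.95, SE 0.21, adjusted p = 0.0147) and miR-802-5p at 171, 205 and 219.6 CPM and 85.8, 147 and 79.4 CPM (-0.93, SE 0.27, adjusted p = 0.0314). The other calls were miR-802-3p at -1.08 and miR-194-2-3p at -0.95. All KO libraries were below all WT libraries in these 5. miR-192 and miR-194-2 lie within 290 bases of chromosome 19 (chr19:6264643-6264932), and miR-802 on chromosome 16 (chr16:93369720-93369816). In whole-kidney RNA a changed level from fewer or more cells of a type cannot be told apart from less or more RNA per cell.

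miR-215-5p, which has the seed of miR-192-5p, was at 1.39, 1.14 and 1.89 CPM in WT and 1.42, 1.12 and 1.56 CPM in KO, a mean of 28.7 reads, and was not called (-0.10, SE 1.12, adjusted p = 0.963). The log2 ratio of miR-192-5p to miR-215-5p was 13.51, 14.41 and 13.86 in WT and 13.29, 13.26 and 12.01 in KO, without overlap, as a description. The summed level of the 7 strands was 17297, 26225 and 29594 CPM in WT and 14878, 11819 and 6938 CPM in KO. The count of calls was 0 without KO replicate 3, WT replicate 2 or WT replicate 3, 2 when WT replicate 1 was dropped and 3 when KO replicate 1 was. It was 0 with library totals, 3 with totals that left out miR-10 and 2 with the 6 libraries fitted alone.

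miR-204-5p, from an intron of Trpm3 (chr19:22750605-22750672), was at 1065, 1344 and 1422 CPM in WT and 815, 719 and 489 CPM in KO (log2 fold change -0.92, SE 0.21, adjusted p = 0.0159), without overlap. miR-211-5p, which differs from it at 1 of 22 bases, was at 3.33, 2.28 and 3.38 CPM and 1.95, 2.24 and 2.12 CPM (-0.51, SE 0.20, adjusted p = 0.107). The log2 ratio of miR-204-5p to miR-211-5p was 8.32, 9.20 and 8.72 in WT and 8.70, 8.32 and 7.85 in KO, with overlap, so this ratio did not separate the groups. miR-181c-5p fell from 8186, 9223 and 10269 CPM to 5813, 6599 and 4923 CPM (-0.68, SE 0.18, adjusted p = 0.0223), and the other 3 tested strands with its seed, miR-181a-5p, miR-181b-5p and miR-181d-5p, had log2 fold changes of -0.24, -0.11 and -0.48 and were not called. The calls of miR-204-5p and miR-181c-5p were lost without KO replicate 3, WT replicate 2 or WT replicate 3, with library totals, and with the 6 libraries fitted alone. Of the 13 other settings miR-181c-5p was not called in 6 and miR-204-5p in 5.

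Strands of the X-linked miR-106a/miR-363 cluster fell, and none of its relatives on other chromosomes was called. miR-106a, miR-18b, miR-20b and miR-363 lie within 875 bases (chrX:52741693-52742567, minus strand, between genes). Of 7 tested strands 4 were lower, against 3.62% of all miRNAs, all 7 had negative values, and the median was -0.67. miR-363-3p was at 30.9, 31.4 and 30.9 CPM in WT and 17.8, 19.9 and 14.7 CPM in KO (log2 fold change -0.84, SE 0.17, adjusted p = 0.0116), miR-20b-5p at 28.7, 32.4 and 24.5 CPM and 14.9, 22.4 and 15.4 CPM (-0.70, SE 0.20, adjusted p = 0.0314), and miR-106a-5p at 21.1, 19.7 and 19.6 CPM and 11.2, 17.4 and 9.51 CPM (-0.67, SE 0.19, adjusted p = 0.0265). In the miR-17/92 cluster of chromosome 14, counted here as miR-17, miR-18a, miR-19a and miR-20a, 0 of 8 strands were called, with none under an unadjusted p of 0.05 and none by DESeq2. Of the 8 strands 6 had negative and 2 positive values, the largest 1.30 for miR-19a-3p at a mean of 157 CPM, so a lack of calls there does not show a lack of change. miR-19b and miR-92a were left out of the counts of single clusters and enter only the count over all 3. Of these, neither miR-92a-3p (-0.18, mean 4614 CPM) nor miR-92a-1-5p (0.44, mean 90.8 CPM) was called. In miR-106b/25, 0 of 6 were called, with 2 under an unadjusted p of 0.05 and 1 by DESeq2.

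miR-17-5p shares its seed with miR-106a-5p and differs from it at 1 of 23 bases. It was far more abundant, at 728, 593 and 584 CPM in WT and 465, 701 and 527 CPM in KO (-0.17, SE 0.18, adjusted p = 0.568), so a small part of its reads counted as miR-106a-5p would weigh on the latter. The log2 ratio of miR-106a-5p to miR-17-5p was -5.11, -4.91 and -4.90 in WT and -5.37, -5.33 and -5.79 in KO, a shift of -0.53 without overlap, as a description. Over the 28 listed strands of all 3 clusters, 25 were tested and 4 were called, near the 12.6% of all miRNAs, with a median of -0.17. In the X-linked cluster 0 strands were called without KO replicate 3 or WT replicate 2, 1 without WT replicate 1 or WT replicate 3, and 2 without KO replicate 1. Of the 13 other settings miR-106a-5p and miR-20b-5p were each not called in 9, and miR-363-3p in 3.

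Several other falls came in pairs. miR-489-3p and miR-653-5p lie within 703 bases in an intron of Calcr, the calcitonin receptor gene (chr6:3721301-3722003, minus strand). miR-489-3p was at 3.95, 5.37 and 4.73 CPM in WT and 2.34, 2.06 and 1.73 CPM in KO (log2 fold change -1.20, SE 0.23, adjusted p = 0.00981), and miR-653-5p at 40.9, 44.8 and 51.5 CPM and 16.7, 31.3 and 14.8 CPM (-1.13, SE 0.25, adjusted p = 0.0147). Both arms of miR-874 fell, miR-874-5p from 11.8, 11.1 and 12.1 CPM to 5.12, 7.95 and 5.27 CPM (-0.94, SE 0.20, adjusted p = 0.0136) and miR-874-3p with a log2 fold change of -0.83. Both arms of miR-708 were called as well, at -0.88 for the 3p arm and -0.69 for the 5p arm. The largest falls by size were in scarce miRNAs. miR-690 had 2.24, 0.855 and 3.29 CPM in WT and 0.568, 0.655 and 0.692 CPM in KO (-1.74, SE 0.55, adjusted p = 0.0493), miR-7685-5p 1.31, 1.38 and 1.62 CPM and 0.604, 0.468 and 0.475 CPM (-1.45, SE 0.36, adjusted p = 0.0167), and miR-3084-5p 1.08, 0.665 and 0.721 CPM and 0.249, 0.281 and 0.432 CPM (-1.30, SE 0.34, adjusted p = 0.0204). Of the 13 other settings miR-690 was not called in 10, miR-3084-5p in 9, miR-7685-5p in 5 and miR-653-5p in 4. miR-489-3p and miR-874-5p were lost in 2, without KO replicate 3 and with library totals.

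The remaining calls were single strands. Those lower in KO were miR-130b-3p (-0.57), miR-335-3p, from an intron of the imprinted gene Mest (-0.50), miR-488-3p (-0.62), miR-350-5p (-0.61), miR-346-5p (-0.80), miR-615-5p (-0.70) and miR-3105-3p (-0.85). miR-335-3p showed the smallest change called, at 741, 786 and 589.9 CPM in WT and 470.0, 586 and 446 CPM in KO. Those higher in KO were miR-193a-3p, miR-666-5p, miR-1945, miR-6960-5p, miR-1224-5p and miR-6540-5p. miR-193a-3p was at 229, 271 and 305 CPM in WT and 629.5, 258 and 654 CPM in KO, so KO replicate 2 lay inside the WT range (0.94, SE 0.29, adjusted p = 0.0403). miR-666-5p was at 4.10, 2.66 and 3.34 CPM and 7.46, 8.70 and 15.6 CPM, without overlap (1.66, SE 0.40, adjusted p = 0.0163), and had no matched hairpin, so it was not placed on a chromosome. miR-1224-5p and miR-6540-5p were at or under the 3-read limit in every WT library and in KO replicate 2, and their large log2 fold changes are fitted values that rest on few reads.

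The strands of a hairpin mostly moved together. Of 257 hairpins with both arms tested, 17 had both arms called and all 17 in the same direction, 7 of them in the Dlk1-Dio3 interval. Another 43 had 1 arm called, and in 40 of those the other arm had the same sign. Over all 257 hairpins the arms had the same sign in 181, 70.4%. Arms of 1 hairpin are not independent measurements of a change in its transcription.

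Markers of other cells were examined because whole kidneys were sequenced. The erythroid miRNAs miR-144, miR-451a and miR-486 summed to 4436, 4528 and 5721 CPM in WT and 9955, 6679 and 10854 CPM in KO, so all KO libraries lay above after TMM scaling. KO replicate 2, nearest to WT in these sums, had the lowest TMM factor of the 6, 0.393, so its place above WT depends on that scaling. The median log2 ratio of a KO library to the WT mean over the 7 strands was 1.00, 0.23 and 0.99. Both miR-486a-5p and miR-486b-5p, at near-equal means of 2726 and 2718 CPM, enter these sums, so the same reads may count in each. Both also count among the strands under an unadjusted p of 0.05 given next. All 7 strands had positive values, 5 had an unadjusted p under 0.05 (29.0% of all miRNAs had), and 1 was called (12.6% of all), miR-144-5p, at 39.5, 40.96 and 50.5 CPM and 61.7, 78.9 and 146 CPM (log2 fold change 1.13, SE 0.29, adjusted p = 0.0204). The most abundant, miR-451a, was at 984, 689.9 and 771 CPM and 1478, 1898 and 2644 CPM (1.30, SE 0.47, adjusted p = 0.0776). Striated-muscle miRNAs summed to at most 25.8 CPM in WT and to 142 and 87.7 CPM in KO replicates 1 and 3, with replicate 2 in between, and 5 of 18 listed strands had no read in any of the 6 libraries. Of its 8 tested strands 0 were called (edgeR), 3 had an unadjusted p under 0.05 and DESeq2 called 3. The part of blood or muscle in other differences was not tested.

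Lists of stromal and vascular cells gave no calls. Of mesenchymal miR-199 and miR-214, 0 of 6 tested strands were called, with 0 under an unadjusted p of 0.05 and 0 by DESeq2, and their sum was 12108, 14682 and 14306 CPM in WT and 12970.1, 9820.1 and 9253 CPM in KO. In that sum miR-199a-3p and miR-199b-3p, at means of 5155 and 5096 CPM, differ at 0 of 22 bases, so the same reads may count in each. Endothelial miR-126a had 0 of 2 called, with 1 under an unadjusted p of 0.05 and 2 by DESeq2. miR-126a-5p stood at 14703, 21351 and 23872 CPM and 15710.5, 10679 and 9088 CPM (-0.76, SE 0.29, adjusted p = 0.088). Smooth-muscle miR-143 and miR-145 had 0 of 5, with 0 under an unadjusted p of 0.05 and 0 by DESeq2, and leukocyte miRNAs 0 of 10, with 2 and 0. The sum of leukocyte markers was 1741, 1611 and 1526 CPM in WT and 1247, 2129 and 1713 CPM in KO. Neural (0 of 7, with 3 under an unadjusted p of 0.05 and 1 by DESeq2), endocrine (0 of 4, with 2 and 0) and liver miRNAs (0 of 2, with 0 and 0) gave none, and the liver list summed to at most 18.05 CPM.

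Among large families of kidney miRNAs, let-7 had 0 calls of 22 and a median of -0.02, with 1 under an unadjusted p of 0.05 and 1 by DESeq2. The miR-30 family had 0 of 11 (median -0.18, 1 under an unadjusted p of 0.05, 1 by DESeq2), miR-322/miR-503 0 of 13 (median -0.04, 1 and 1), miR-378 0 of 5 (median -0.24, 0 and 0) and miR-224 with miR-452 0 of 3 (median 1.13, 2 and 1). miR-224-5p came nearest, at 18.8, 12.4 and 12.1 CPM in WT and 15.7, 39.6 and 39.7 CPM in KO (1.13, SE 0.36, adjusted p = 0.0503).

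**Figure D4:**
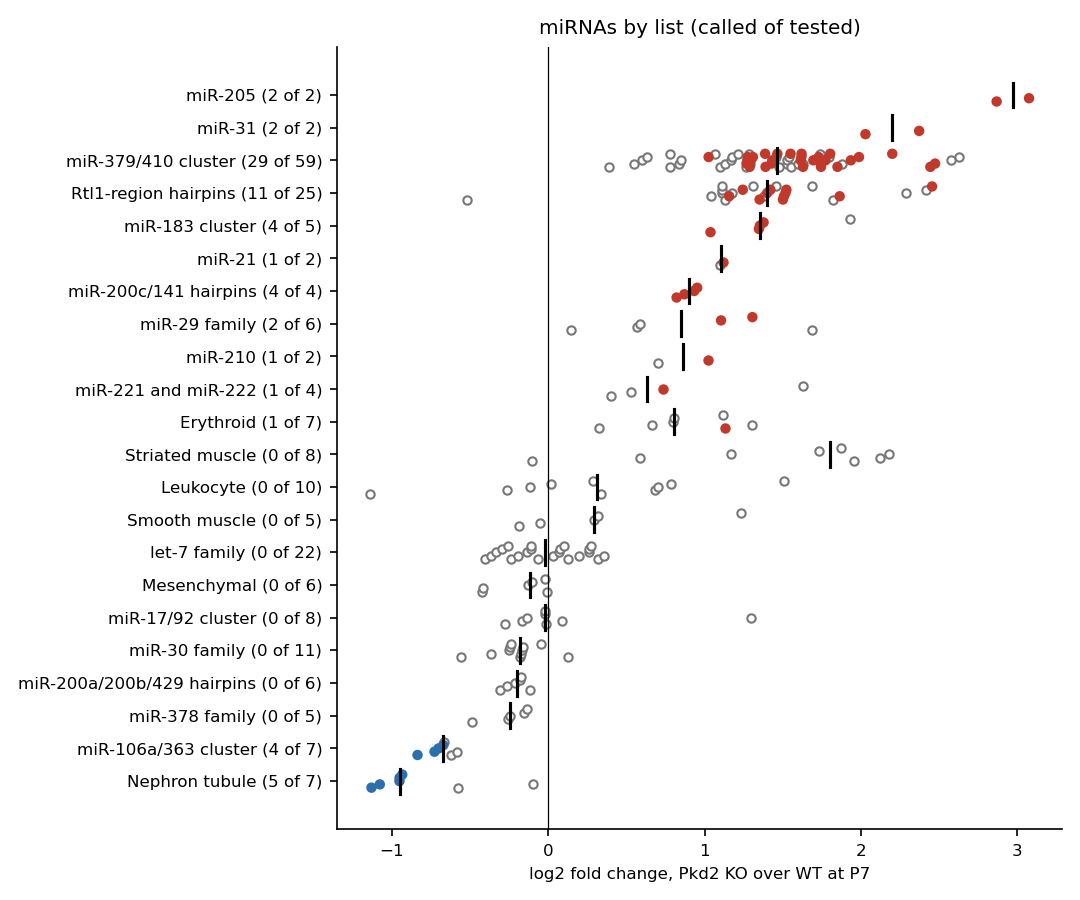
Log2 fold change of KO over WT at P7 for the tested strands of 22 lists, with filled points for called miRNAs (red higher, blue lower), open points for the others and a bar at each list median. The medians run from 2.97 for miR-205 to -0.95 for the nephron list, and the 2 miR-200 clusters stand apart at 0.90 and -0.20.

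The same contrast was made at P1 and P3. Of the 746 miRNAs, 0 were called at P1 (edgeR), where 41 had an unadjusted p under 0.05 (5.50%), and 0 at P3, where 11 had (1.47%). Median effects of the lists with calls at P7 are given for P1 and P3 in that order. They were -0.05 and 0.16 for the Dlk1-Dio3 interval, 0.27 and -0.11 for miR-200c/miR-141, 0.22 and 0.14 for the miR-183 cluster, -0.18 and -0.03 for miR-205 and -0.09 and -0.03 for miR-21. The miR-31 arms had 0.76 and 0.19, miR-210 0.35 and -0.16, miR-29 0.30 and -0.19, miR-34 with miR-449 -0.12 and -0.16, and miR-221 with miR-222 0.09 and -0.09. The nephron list had -0.61 and -0.17, the miR-106a/miR-363 cluster -0.12 and -0.10 and the erythroid list 0.23 and -0.19. The medians farthest from 0 were those of miR-31 and of the nephron list at P1.

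Whether the KO effect itself differed between ages was tested with interaction terms in the same fit. Between P7 and P1 it differed for 4 miRNAs, 0.536% of those tested, with 126 under an unadjusted p of 0.05 (16.9%). For miR-31-5p the effect was 0.31 (SE 0.30) at P1 and larger at P7 by 2.06 (SE 0.44, adjusted p = 0.0426). Its other arm, miR-31-3p, already had an effect of 1.20 at P1 (SE 0.41, unadjusted p = 0.00929, adjusted p = 0.819), and its difference between the ages, 0.83, did not pass (SE 0.57, adjusted p = 0.49). For miR-540-3p the difference was 2.01 (SE 0.37, adjusted p = 0.0219), for miR-299a-3p 1.62 (SE 0.32, adjusted p = 0.0278) and for miR-3084-5p -2.94 (SE 0.52, adjusted p = 0.0219). miR-3084-5p had opposite signs at the 2 ages, with 0.0909 ± 0.00813 CPM in WT and 0.299 ± 0.101 CPM in KO at P1 (SD, n = 3) and 0.823 ± 0.227 and 0.320 ± 0.0981 CPM at P7, where every P1 WT library held 3 reads. Between P7 and P3 it differed for miR-31-5p alone, by 2.48 (SE 0.44, adjusted p = 0.0262), or 0.134% of those tested, while 111 had an unadjusted p under 0.05 (14.9%). For the other P7 calls a change of the KO effect with age was not shown by this test. Of the 87 tested miRNAs of the Dlk1-Dio3 interval, 53 had an unadjusted p under 0.05 for P7 against P1, where 16.9% of all miRNAs had. The count for P7 against P1 was 0 without P7 WT replicate 1, P1 WT replicate 3 or P1 KO replicate 2, and 11 without P7 KO replicate 2.

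The levels at the 3 ages follow for miRNAs with and without a shown change of the KO effect. From P1 through P3 to P7, miR-409-3p went from 137 ± 72.3 to 63.9 ± 2.76 and 30.9 ± 3.13 CPM in WT (mean ± SD, n = 3 at each age), and from 109.5 ± 25.8 to 70.95 ± 17.1 and 90.3 ± 22.9 CPM in KO. For miR-409-3p the KO effect was not shown to differ between P7 and P1 (adjusted p = 0.0616). miR-540-3p went from 19.1 ± 6.12 to 10.1 ± 0.973 and 4.25 ± 0.526 CPM in WT and from 17.2 ± 4.16 to 11.7 ± 2.72 and 15.5 ± 4.23 CPM in KO. In WT both were called lower at P7 than at P1 (log2 differences -2.15 and -2.16, adjusted p = 0.000221 and 7.12e-05), and the P7 KO means lay within 1 SD of the P1 KO means. Across the interval, 69 of 87 miRNAs were called lower and 1 higher in WT at P7 than in WT at P1 (median log2 difference -1.86), where 16.9% and 11.4% of all miRNAs were.

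The nephron miRNAs ran the other way in WT. miR-192-5p went from 8199 ± 1022 to 12205 ± 5344 and 23097 ± 6206 CPM in WT and from 5032 ± 1005 to 10715 ± 2568 and 10551 ± 3942 CPM in KO. miR-204-5p went from 525 ± 52.3 to 688 ± 147 and 1277 ± 188 CPM in WT and from 529 ± 49.9 to 727 ± 129.7 and 674 ± 168 CPM in KO. For neither was the KO effect shown to differ between P7 and P1 (adjusted p = 0.745 and 0.148). Of the 7 nephron strands 5 were called higher and 0 lower in WT at P7 than at P1 (median 1.43), where 11.4% and 16.9% of all miRNAs were. miR-31-5p had another course, at 66.5 ± 11.3, 70.4 ± 21.5 and 44.1 ± 8.34 CPM in WT and 82.6 ± 18.6, 65.2 ± 13.97 and 228 ± 102 CPM in KO. The comparison of WT ages uses the same 3 WT libraries at P7 as the comparison of KO with WT, so both sets of values move together with any error in those libraries.

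**Figure D5:**
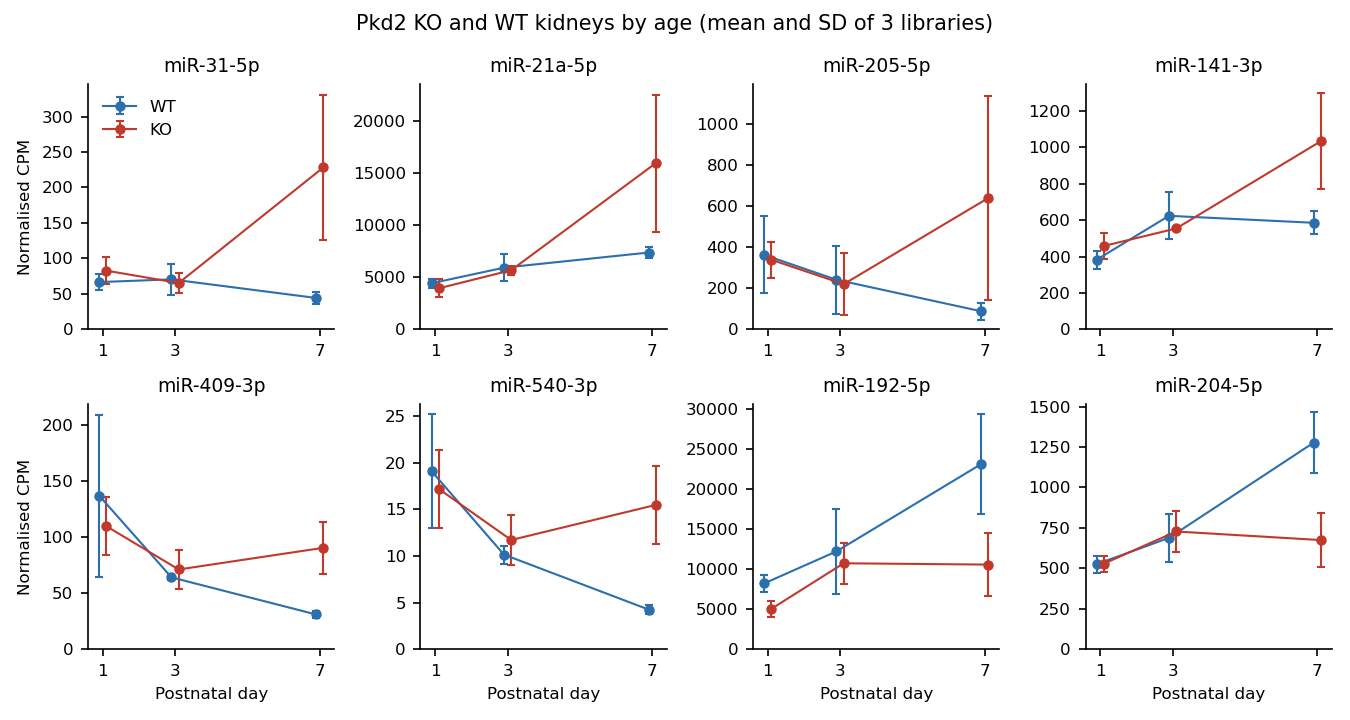
Mean normalised CPM with SD (n = 3 libraries) of 8 miRNAs in WT (blue) and KO (red) Pkd2 kidneys at postnatal days 1, 3 and 7. At days 1 and 3 the libraries of the genotypes overlap for all 8 but miR-192-5p at day 1, and at day 7 mean miR-31-5p reads 44.1 CPM in WT against 228 in KO, mean miR-192-5p 23097 against 10551.

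The Pkd1 model at P7 has cysts of the same segment and its own 6 libraries. There 3 miRNAs were called of 706 tested (0.425%), with 72 under an unadjusted p of 0.05 (10.2%). All 3 were also among the Pkd2 calls. miR-21a-5p stood at 6349 ± 203 CPM in Pkd1 WT and 17321 ± 1049 CPM in Pkd1 KO (1.45, SE 0.17, adjusted p = 0.00017), miR-183-5p changed by 1.28 (SE 0.20, adjusted p = 0.00389) and miR-182-5p by 1.06 (SE 0.22, adjusted p = 0.0482). The medians of other lists in Pkd1 kidneys were 1.28 for the miR-183 cluster, 0.62 for miR-200c/miR-141, 0.14 for the Dlk1-Dio3 interval, -0.40 for the nephron list and -0.30 for the miR-106a/miR-363 cluster. They were 0.60 for miR-31, with 0 of 2 arms under an unadjusted p of 0.05, and 0.75 for miR-221 with miR-222. The values were 0.14 for miR-34 with miR-449, -0.20 for miR-29, -0.29 for miR-210, -0.11 for the erythroid list and -1.54 for miR-205.

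Tested directly over 775 miRNAs, the KO effect differed between the models for 3 (0.387%). miR-205-5p, higher in Pkd2 KO, was at 57.4, 78.2 and 117 CPM in Pkd1 WT and 22.4, 41.0 and 17.8 CPM in Pkd1 KO, and its effects differed by 4.51 (SE 0.94, adjusted p = 0.0229). For miR-205-3p the difference was 4.50 (SE 0.99, adjusted p = 0.0259) and for miR-3059-5p 6.46 (SE 1.37, adjusted p = 0.0229). None of the Dlk1-Dio3, nephron or miR-200c/miR-141 miRNAs passed, so a difference between the models was not shown for them. Neither arm of miR-31 passed, although 2 of 2 had an unadjusted p under 0.05, as had 90 of the 746 miRNAs tested in Pkd2. The count was 0 when Pkd2 KO replicate 3, Pkd2 WT replicate 2 or 3, Pkd1 WT replicate 3 or Pkd1 KO replicate 1 or 3 was left out, 1 without Pkd1 KO replicate 2, 2 without Pkd2 KO replicate 1 and 7 without Pkd2 KO replicate 2. The models were separate crosses, so the model and any difference in how their libraries were made cannot be told apart.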

How the data were processed

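Whole kidneys of C57BL/6 mice were taken for total RNA, and small RNA libraries were sequenced by the authors. Per the submitters' notes, which name CASAVA 1.8.2, HTSeq and mm10, and the methods of the study, adaptors were trimmed, reads longer than 17 bases were kept and miRDeep2 counted them against miRBase 21. The authors deposited raw read counts, not normalised, with 1 row for each mature miRNA and hairpin, 2061 rows for 1915 miRNAs. For the 83 miRNAs on several hairpins the row with the highest total over the 36 libraries was used, so their reads are not tied to 1 locus. Counting of near-identical strands could split or share reads.

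A miRNA was tested if 3 or more of the 18 Pkd2 libraries held 10 or more of its counts. The untested ones took up to 0.00399% of the reads in a P7 library. edgeR 4.0.16 (R 4.3.3) fitted the 18 libraries with 1 term for each of 6 groups, TMM factors and the quasi-likelihood F-test, adjusted by Benjamini-Hochberg. Contrasts were KO against WT at each age, WT at P7 against P1, and differences of KO effects between ages. The models were compared in a fit of all 36 libraries. The SE is the size of the log2 fold change divided by the square root of F. Nothing says how many litters the 3 replicates of a group came from, so p-values cover the spread between these libraries. They differed by far more than counting noise, with a chi-square of counts per degree of freedom of at least 153 over 6 replicate pairs. Pearson's r of log2 normalised CPM across miRNAs was 0.973 to 0.994 over these pairs. KO replicate 2 had a higher r with WT replicate 1 (0.984) than with KO replicate 1 (0.973) or KO replicate 3 (0.979). Read shares were compared with an exact permutation test (scipy 1.17.1, Python 3.11.15). The scripts were tested on simulated data.

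Alternatives were relative log expression factors, library totals with and without miR-10, DESeq2 1.42.0, no filter, a replicate block, the 6 libraries alone, and each P7 library left out. The miRNAs, the 27 lists and the tests were chosen with earlier results of these data known. Named were the 10 largest rises and falls among calls without overlap whose counts averaged 10 or more, the 8 most abundant calls, up to 3 members of each list by smallest p and up to 5 by adjusted p for each difference of effects. Any other miRNA, seed partners among them, was chosen after its values were seen. Mature sequences matched RefSeq (GRCm38.p6) for 622 of 746 miRNAs and hairpins for 596, and host genes are from GENCODE for the same build.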

Additional observations from a re-analysis of the deposited data

Results flagged for a closer look

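These results stand out because the KO effect differed by the interaction test between groups. Between P7 and P1 the log2 effect differed by 2.06 for miR-31-5p, 2.01 for miR-540-3p, 1.62 for miR-299a-3p and -2.94 for miR-3084-5p, the last at a handful of reads. Between P7 and P3 it differed by 2.48 for miR-31-5p. Between the Pkd2 and Pkd1 models at P7 it differed by 4.51 for miR-205-5p, 4.50 for miR-205-3p and 6.46 for miR-3059-5p. All 3 of these were higher in Pkd2 KO and had negative effects in Pkd1 KO, and none of the 3 was called when Pkd1 KO replicate 1 or 3, or Pkd2 KO replicate 3, was left out.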

How the results depend on the processing

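The number of calls moved with the setting, and the cause was not tested. At P7 all 94 kept their sign in the 13 settings, which says little, since 88 of them do not overlap between the groups. The count was 7 with library totals (all higher in KO), 157 with DESeq2 (which shared all 94), 53 with the 6 libraries alone and 4 (all higher, without KO replicate 3) to 142 with 1 library left out. The 133 past 2-fold and unadjusted p ran from 79 to 143 with 1 library left out. The share of calls that were higher, 71.3%, was 83.2% with library totals without miR-10, 85.4% with no filter, 86.8% with the 6 libraries alone, 66.9% with DESeq2 and 63.6% without WT replicate 3. For the difference between P7 and P1 (4 calls), library totals gave 0, totals without miR-10 gave 1, DESeq2 33 and leaving out 1 library 0 to 11. For P7 against P3 (1 call) the counts were 0, 0, 8 and 0 to 11, and 2 with no filter. For Pkd2 against Pkd1 (3 calls), leaving out 1 library gave 0 to 7.

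Deviations from the group mean of same-numbered KO and WT libraries at P7 correlated at -0.48, -0.08 and -0.09, and no library correlated best with its own number. With 3 libraries in a group such correlations cannot show whether the numbers mark litters or batches. With the replicate block 72 were called at P7 (67 of them among the 94, 83.3% higher), and 0 in each of the differences P7 against P1, P7 against P3 and Pkd2 against Pkd1.

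The values that changed sign belonged to miRNAs that were not called. These were miR-214-3p at 0.01926 with library totals without miR-10, and with 1 library left out miR-124-3p (-0.03711 to 2.747), miR-137-3p (-0.05234 to 3.217), miR-351-5p (-0.03205 to 0.8589), miR-452-5p (-0.4948 to 1.198) and miR-7a-1-3p (-0.03811 to 0.2486), on the log2 scale.

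Depth limits the scarce miRNAs. Below 1 CPM the median SE was 0.54, and 5.85% were called.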
